A study of Mus musculus with 10 samples.

Results

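The 10 genes that encode transcription regulators of the spermatid program were followed in testicular germ cells: Crem, Fhl4, Fhl5, Tbpl1, Taf7l, Gtf2a1l, Rfx2, Sox30, Mybl1 and Tbp. They were picked by symbol, and all 10 were present among the 15507 genes listed and all 10 were among the 15389 genes tested. Germ cells came from 5 wild-type (WT) mice and 5 GRTH-Knock-In (KI) mice, all aged 45 days, with 1 library from each mouse. The KI mice were homozygous and carried the human GRTH gene with an Arg-to-His mutation in place of the mouse gene Ddx25, which encodes a testicular RNA helicase of the DEAD-box family. The knock-in is present in every cell of the animal and was not restricted to one cell type. WT mice had no altered allele, and no agent was given to either group. The germ cell fraction was a filtered suspension of spermatogonia, spermatocytes and spermatids together, so fewer cells of a type and less RNA per cell cannot be told apart in any value given here. From the authors' earlier work the study reports that these KI mice have no elongating spermatids or sperm, because their round spermatids do not elongate.

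After meiosis, round spermatids transcribe the genes of the sperm head and tail before their chromatin is packed with transition proteins and protamines and transcription stops. CREM, a factor of the CREB family that binds cAMP response elements (CRE), is a known activator of many of these late genes, and in spermatids it works with LIM-only partner proteins rather than by the phosphorylation used in other tissues. Germ cells also have their own versions of the basal transcription machinery, which work beside or in place of TBP, TAF7 and TFIIA. RFX2, SOX30 and MYBL1 act earlier or in parallel, on ciliary, spermatid and pachytene genes. The question was whether these regulators changed together with the late genes they control.

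Reads on genes numbered 12722086 to 16422347 per library. Values are the authors' normalized counts, and fold changes are differences of log2(normalized count + 1), KI against WT, fitted with limma and adjusted over all genes tested. A call needed both an adjusted p under 0.05 and a change of at least 1.5-fold in either direction. The targeted gene Ddx25 had normalized counts of 5198 to 11101 in WT and 146 to 194 in KI libraries 1 to 3 and 1.84 to 2.88 in KI libraries 4 and 5, so that each library matched its label. In both genotypes, libraries 1 to 3 differ from libraries 4 and 5 in read quality in the study's alignment summary, and values within each set are given for the regulators, their known targets and the round spermatid markers. No listed regulator, target or marker gene was at 0 in any library. Over all genes tested, 8.22% were called lower in KI and 6.13% higher. By adjusted p alone 13.3% were lower and 9.65% higher, or 17.4% and 14.7% when the library number was a block. Within libraries 1 to 3, 17.9% of all genes were lower by adjusted p, and within libraries 4 and 5, 7.62%. Markers of elongating spermatids were lower in KI in 9 of 9 genes called, and their summed level was 257043 to 457396 in WT and 38301 to 74641 in KI. Of 7 round spermatid markers none was called, 3 fell by adjusted p, and the summed level was 16159 to 19310 in WT and 9418 to 16367 in KI. Their median log2 fold change was -0.42. The 3 that fell were Catsper3 (-0.58), Spaca1 (-0.53) and Zpbp (-0.42), and the other 4 lay between -0.48 and -0.13. By set of libraries, 4 of the 7 round spermatid markers were lower by adjusted p in libraries 1 to 3 and 6 of 7 in libraries 4 and 5. Spaca4, Izumo1 and Catsper4, picked for this after their values were seen, had log2 fold changes of 0.11, 0.16 and 0.19 in libraries 1 to 3 and of -0.54, -0.57 and -0.72 in libraries 4 and 5. The other 4, Acrv1, Spaca1, Catsper3 and Zpbp, had -0.26, -0.35, -0.44 and -0.35 in libraries 1 to 3. In libraries 4 and 5 these 4 had -0.80, -0.80, -0.79 and -0.52. For 6 of the 7 the unadjusted p of the difference between the sets was under 0.05, and none passed after adjustment (lowest adjusted p = 0.0625, limma). The 7 spermatocyte markers had no call (summed level 7250 to 12574 in WT and 6993 to 11241 in KI), with 1 lower and 1 higher by adjusted p when the library number was a block. Leydig cell markers rose in 4 of 7 genes called, with 7 of 7 higher by adjusted p when the library number was a block. Of 9 macrophage markers 5 rose and 1 fell, and of 4 tested peritubular myoid markers 2 rose. The macrophage marker that fell was Aif1, from a mean of 3016 in WT to 1408 in KI. With it the summed level of the 9 was 3443 to 4604 in WT and 2658 to 3239 in KI. None of 8 Sertoli cell markers was called, although 3 were higher by adjusted p in libraries 1 to 3 and 1 was lower in libraries 4 and 5. Of 7 spermatogonial markers none was called, 1 fell by adjusted p, and 2 were higher in the block fit. The part of cell composition in the changes of the regulators and of their known targets was not tested.

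Crem was the only regulator of the 10 that was called, at 0.660 of its mean WT level, and Fhl4 and Sox30 fell by adjusted p with smaller folds. Fhl5 and Tbpl1 did not pass that threshold over all 10 libraries and did when the library number was taken as a block. The labels do not state such a pairing. Rfx2, Gtf2a1l, Tbp, Taf7l and Mybl1 did not pass. All 10 fold changes were below 0, with a median of -0.24 against 0.03 over all genes tested, though 5 of them turned above 0 when libraries were set to their totals, which moved the median of all genes to 0.25. Lower calls were made for 1 of the 10 regulators and for 8.22% of all genes tested, and higher calls for none of the 10 and for 6.13% of all genes (1265 and 944 genes, or 789 and 2144 with library totals). By adjusted p alone, 3 of the 10 were lower against 13.3% of all genes, and none was higher against 9.65%. With the library number as a block, 5 of the 10 were lower by adjusted p against 17.4% of all genes, and none was higher against 14.7%. Within libraries 1 to 3, 6 of the 10 were lower by adjusted p against 17.9% of all genes, and within libraries 4 and 5 1 of the 10 was, against 7.62%. In 2 of the 10, Crem and Tbpl1, every KI library was below every WT library, which held for 10.9% of all genes.

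**Figure D1:**
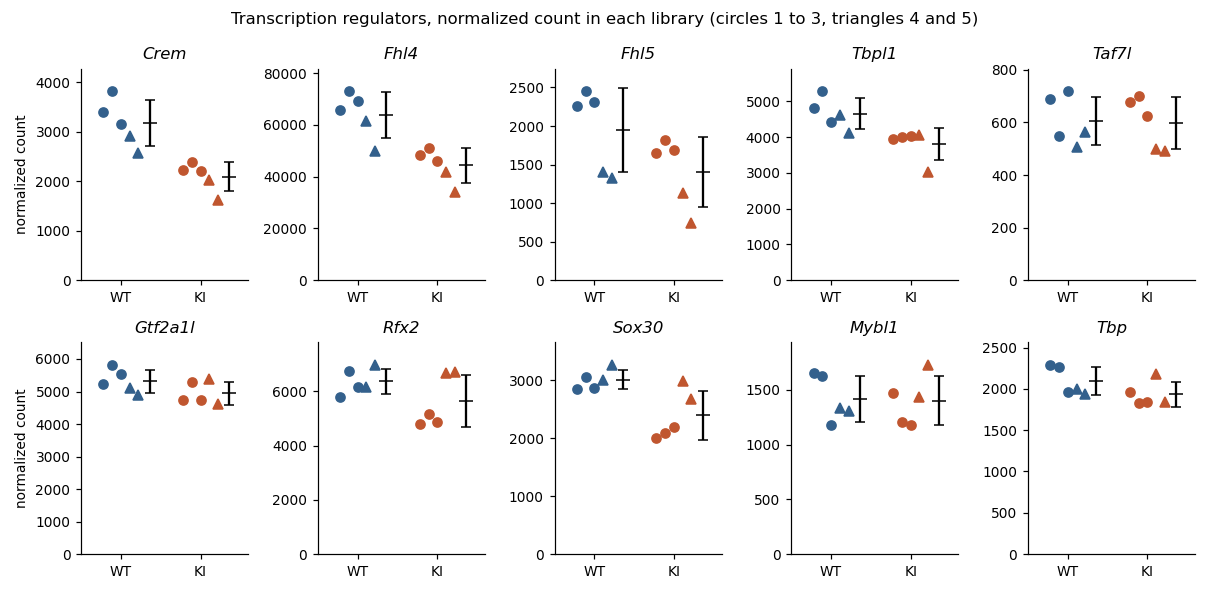
Normalized count (y axis, from 0) of each regulator in the 5 WT and 5 KI libraries (x axis), 1 point per library, with circles for libraries 1 to 3, triangles for libraries 4 and 5, and the mean with its SD beside the points. The KI points of Crem (1616 to 2395) lie below all WT points (2576 to 3815), while those of Taf7l and Mybl1 cover the same range as WT.

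The order of the regulators in WT was set by the normalized count per kilobase of annotated exon, since counts of genes of different length cannot be compared. Fhl4 stood highest with 17972 ± 2493 per kilobase (SD, n = 5), followed by Gtf2a1l with 2813 ± 193 per kilobase. Fhl5 had 1666 ± 463 and Tbpl1 1420 ± 133 per kilobase, and these neighbours did not differ beyond their spread. Sox30 followed with 1005 ± 54.7 and Rfx2 with 871 ± 65.0 per kilobase, and their WT libraries met at 954 and 953 without overlapping. Crem had 538 ± 79.9 per kilobase. Taf7l with 270 ± 41.3 and Mybl1 with 263 ± 38.9 per kilobase did not differ beyond their spread, and Tbp was lowest with 154 ± 12.4 per kilobase. The exon length is the union over all annotated transcripts, which for Tbp is 13576 bases and for Fhl5 1171, so a gene with long minor transcripts is placed lower than its main transcript would be. In KI the order of the means was the same for all 10 genes.

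**Figure D2:**
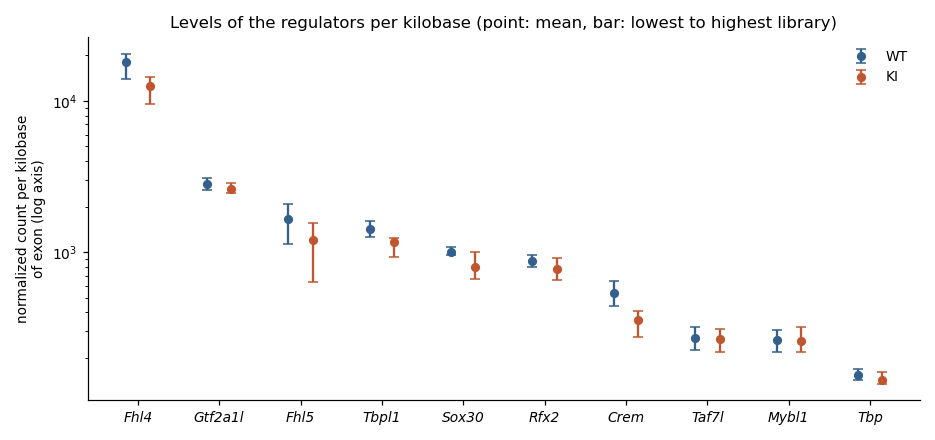
Normalized count per kilobase of annotated exon (log axis) for the 10 regulators, ordered by the WT mean, with the mean of 5 libraries as a point and a bar from the lowest to the highest library. Fhl4 lies far above the others in both genotypes (17972 in WT and 12477 in KI per kilobase), and Tbp lies lowest (154 and 142).

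Crem, which encodes the cAMP-responsive activator of late spermatid genes, lies at chr18:3266354-3337590 on the minus strand (mm10). Its normalized counts were 3405, 3815, 3150, 2921 and 2576 in WT libraries 1 to 5 and 2223, 2395, 2208, 2027 and 1616 in KI libraries 1 to 5. The genotypes did not overlap, and in both the fifth library was the lowest. The mean fell by 34.0%, from 3173 ± 471 in WT to 2094 ± 297 in KI (SD, n = 5 each). The log2 fold change was -0.60 (SE 0.123, 95% interval -0.86 to -0.34, adjusted p = 0.00239). It was -0.60 both in libraries 1 to 3 (adjusted p = 2.64e-05) and in libraries 4 and 5 (adjusted p = 0.0251). The value lies close to the 1.5-fold threshold of 0.58 on the log2 scale. Without WT library 1 it was -0.57, without WT library 2 it was -0.53 and without KI library 5 it was -0.51, so that the call ended there although the adjusted p stayed at 0.00890, 0.00818 and 0.00325. With library totals Crem was at -0.37 (adjusted p = 0.0293), and scaled to spermatocyte markers it was at -0.58 (adjusted p = 0.181), and each scaling ended the call. GENCODE annotates 39 transcripts for Crem, 32 of them coding, and the gene is known to make both activator and repressor forms from them, which counts per gene do not separate. An exon of Gm6225 on the opposite strand overlaps Crem, and whether the counting used strand is not given in the sources used here.

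Fhl5 encodes ACT, the LIM-only coactivator that binds CREM in spermatids. It lies at chr4:25199908-25242899 on the minus strand. The WT libraries had normalized counts of 2264, 2451, 2314, 1401 and 1321 and the KI libraries 1656, 1822, 1687, 1130 and 742. In both genotypes libraries 4 and 5 lay below libraries 1 to 3, and within each set every KI library was below every WT library although the whole groups overlapped. The means were 1950 ± 543 in WT and 1407 ± 456 in KI, with a log2 fold change of -0.50 (SE 0.239, adjusted p = 0.156). With the library number as a block, the same difference had an SE of 0.0816 and an adjusted p of 0.000555. Within libraries 1 to 3 it was -0.44 (SE 0.0751, adjusted p = 0.000233), and within libraries 4 and 5 it was -0.57 (SE 0.186, adjusted p = 0.0691). Across genotypes libraries 4 and 5 differed from libraries 1 to 3 by -0.85 on the log2 scale (SE 0.0980, adjusted p = 5.37e-05).

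Fhl4 encodes another LIM-only protein of the testis, of the same family as FHL5. It lies at chr10:85097019-85102496 on the minus strand. Normalized counts were 65739, 72998, 69229, 61396 and 49999 in WT libraries 1 to 5 and 48384, 51032, 46241, 41924 and 34130 in KI libraries 1 to 5. The groups overlapped only in that WT library 5 was below KI library 2. Fhl4 fell from 63872 ± 8861 to 44342 ± 6611, by 30.6%, with a log2 fold change of -0.53 (SE 0.142, adjusted p = 0.0138), under the 1.5-fold threshold. Without WT library 5 the change was -0.61 and passed that threshold as well. The change was -0.51 in libraries 1 to 3 (adjusted p = 0.000426) and -0.55 in libraries 4 and 5 (adjusted p = 0.0856). Set to library totals in place of the authors' scaling, the value was -0.30 with an adjusted p of 0.0810. Relative to the median of all genes it was -0.55 under both scalings, since a scaling shifts all genes of a library alike.

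The other genes of the CREB and FHL group served as a comparison. Among 11 of them, 1 was called lower, 1 was called higher, and 9 passed in neither direction, with a median log2 fold change of 0.16. Over all genes tested, 8.22% were called lower and 6.13% higher. Kif17, the kinesin that carries ACT out of the spermatid nucleus, fell from 7422 ± 688 to 3854 ± 675 (log2 fold change -0.96, SE 0.118, adjusted p = 3.23e-05). Fhl2, a LIM-only gene best known from heart, rose from a low level of 48.2 ± 17.5 to 100.7 ± 43.2 (log2 fold change 1.00, SE 0.303, adjusted p = 0.0258), and this passed no longer without WT library 1, 4 or 5 or KI library 1, 2 or 3 (log2 fold change 0.83 to 0.97, adjusted p between 0.0530 and 0.0722). Atf1, a relative of CREB, had 1143 ± 76.9 in WT and 1059 ± 130 in KI (adjusted p = 0.452).

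None of the regulators that belong to the basal machinery was called. Tbpl1 encodes the TBP-like factor TRF2, which the mouse needs for spermatids to mature. It lies at chr10:22703877-22731448 on the minus strand. Its normalized counts were 4802, 5279, 4416, 4612 and 4122 in WT and 3959, 3997, 4027, 4059 and 3020 in KI. The groups did not overlap, and KI libraries 1 to 4 lay between 3959 and 4059 while KI library 5 stood below them. The means were 4646 ± 434 and 3812 ± 445, with a log2 fold change of -0.29 (SE 0.104, adjusted p = 0.0581). As a blocked comparison by library number it passed (adjusted p = 0.0104), as it did with TMM factors (0.0495), with DESeq2 on the recovered reads (0.0373) and in libraries 1 to 3 alone (-0.27, adjusted p = 0.0141). Leaving out WT library 5 gave -0.33 with an adjusted p of 0.0438, and leaving out KI library 5 gave -0.21 with an adjusted p of 0.119. Exons of Slc2a12 on the opposite strand overlap Tbpl1 and could share its reads.

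Gtf2a1l encodes ALF, the germ cell version of the large TFIIA subunit, and lies at chr17:88668660-88715151 on the plus strand. Its libraries ranged from 4886 to 5811 in WT and from 4632 to 5392 in KI, with a log2 fold change of -0.10 (SE 0.0871, adjusted p = 0.454). Taf7l, at chrX:134460116-134476491 on the minus strand, encodes a germ cell relative of TAF7. It ranged from 508 to 719 in WT and from 490 to 701 in KI, with a log2 fold change of -0.02 (95% interval -0.30 to 0.26, adjusted p = 0.943). Tbp, the TATA-binding protein itself, lies at chr17:15499888-15517428 and shares exon sequence with Pdcd2 on the opposite strand. It ranged from 1939 to 2287 in WT and from 1831 to 2184 in KI, with a log2 fold change of -0.11 (95% interval -0.30 to 0.08, adjusted p = 0.401). The groups overlapped for all 3 genes.

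Of 18 TBP-associated and basal factors in the table, 1 was called lower and none higher, against 8.22% and 6.13% of all genes. By adjusted p 4 were lower, against 13.3% of all genes, and the median log2 fold change was -0.01. Gtf2a2, the small TFIIA subunit and partner of the protein that Gtf2a1l encodes, fell from 1808 ± 226 to 1140 ± 218 (log2 fold change -0.68, SE 0.137, adjusted p = 0.00210). Its call ended without KI library 5 (-0.56), with library totals (-0.45), with the upper quartile (-0.58, just under the threshold) and with scaling to spermatocyte markers (adjusted p = 0.0988). Taf13, Taf11 and Taf6 fell by adjusted p alone, with log2 fold changes of -0.54, -0.33 and -0.28. Taf13 passed the fold threshold as well without WT library 3 (-0.63), and Taf6 passed no longer without any one of WT libraries 2 to 5 or KI libraries 1 to 3 (adjusted p between 0.0596 and 0.0874). Taf9, the member with the highest mean that was not called, had 15147 ± 1438 in WT and 12903 ± 1153 in KI (adjusted p = 0.131, and 0.0379 with the library number as a block).

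Among the earlier and parallel regulators, Sox30 was the one that fell. SOX30 is an HMG-box factor needed for round spermatids, and the gene lies at chr11:45980310-46017993 on the plus strand. Its normalized counts were 2859, 3053, 2876, 3001 and 3264 in WT and 2005, 2096, 2203, 2993 and 2683 in KI. KI libraries 1 to 3 lay well below WT, while KI library 4 reached the range of WT. Sox30 fell from 3011 ± 164 to 2396 ± 424 (log2 fold change -0.34, SE 0.111, adjusted p = 0.0356). The adjusted p lay above 0.05 when any of 8 libraries was left out (WT libraries 1 to 5 and KI libraries 1 to 3, adjusted p between 0.0516 and 0.0939), and it was 0.00791 with the library number as a block and 0.329 with library totals. The change was -0.48 in libraries 1 to 3 (adjusted p = 8.92e-05) and -0.14 in libraries 4 and 5 (adjusted p = 0.577).

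Rfx2 encodes the regulatory factor X protein that drives ciliary genes in spermatids, and lies at chr17:56775897-56831009 on the minus strand. It had normalized counts of 5796, 6735, 6160, 6171 and 6968 in WT and 4815, 5172, 4874, 6666 and 6705 in KI. The KI libraries parted into 3 below all WT libraries and 2 within the WT range. The means were 6366 ± 475 and 5646 ± 958, with a log2 fold change of -0.19 (SE 0.114, adjusted p = 0.272). In libraries 1 to 3 it was -0.33 (adjusted p = 0.00374) and in libraries 4 and 5 it was 0.03 (adjusted p = 0.929). Mybl1 encodes A-MYB, which turns on pachytene and piRNA genes in spermatocytes, and lies at chr1:9667411-9700210 on the minus strand. It had 1652, 1630, 1178, 1339 and 1304 in WT and 1475, 1204, 1178, 1436 and 1727 in KI. The groups covered the same range, and the log2 fold change was -0.02 (95% interval -0.28 to 0.25, adjusted p = 0.939).

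The difference between the sets of libraries was tested for each regulator as an interaction with genotype. It was 0.36 for Rfx2 (SE 0.140, adjusted p = 0.218), 0.34 for Sox30 (SE 0.134, adjusted p = 0.224) and 0.45 for Mybl1 (SE 0.201, adjusted p = 0.278), each higher in libraries 4 and 5. None of the 10 passed after adjustment with limma, or with edgeR on the recovered reads, while 3 had an unadjusted p under 0.05 by either tool and 38 genes in all passed with limma. For Crem the interaction was 0.00 (SE 0.162, adjusted p = 0.999).

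**Figure D3:**
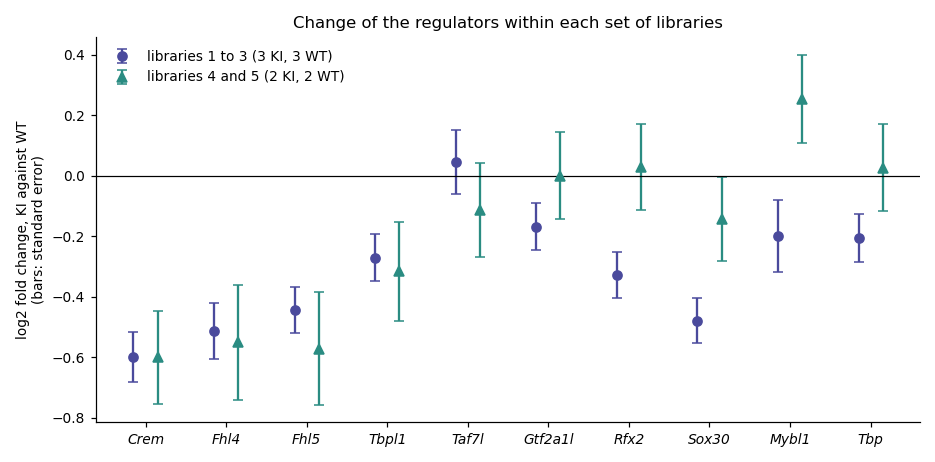
Log2 fold change of KI against WT (y axis, bars are the standard error) for each regulator, with circles for libraries 1 to 3 and triangles for libraries 4 and 5. Crem lies at -0.60 in both sets, while Rfx2 (-0.33 and 0.03) and Sox30 (-0.48 and -0.14) lie lower in libraries 1 to 3.

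Of 12 RFX, SOX and MYB relatives in the table, 1 was called lower and none higher, against 8.22% and 6.13% of all genes. Rfx3, a ciliary RFX factor, fell from 659 ± 56.1 to 429 ± 40.1 (log2 fold change -0.62, SE 0.0978, adjusted p = 0.000292). It lay just under the 1.5-fold threshold, at -0.58, when WT library 2 was left out, and likewise for KI library 1 and KI library 3. The Rfx3 call also ended with library totals (-0.39), with the upper quartile (-0.53) and with scaling to spermatocyte markers (adjusted p = 0.201). Sox5 fell by adjusted p alone, from 2245 ± 197 to 1760 ± 170 (log2 fold change -0.35, adjusted p = 0.0140). Of 7 other regulators of spermatid or late meiotic genes, 1 was called lower, against 8.22% of all genes. Nr6a1, the germ cell nuclear factor GCNF, fell from 3851 ± 477 to 2349 ± 342 (log2 fold change -0.72, SE 0.114, adjusted p = 0.000303). The Nr6a1 call ended with library totals (-0.49) and with scaling to spermatocyte markers (adjusted p = 0.191). Hsf2, a heat shock factor of the testis, fell by adjusted p alone (log2 fold change -0.36, adjusted p = 0.00787). Tcfl5 had 6812 ± 609 in WT and 6175 ± 503 in KI (adjusted p = 0.322).

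The genes that these regulators are known to control were then set beside them. Of 10 CREM-dependent genes 9 were called lower and none higher, with a median log2 fold change of -2.21 against 0.03 over all genes, for which 5% lay below -0.89. Of these 10 genes, 6 are also in the list of elongating spermatid markers. Prm2, a protamine of sperm chromatin, fell 9.61-fold from 89159 ± 25520 to 9282 ± 3127 (log2 fold change -3.30, adjusted p = 3.25e-07). Prm1, the other protamine, fell 6.98-fold (log2 fold change -2.82), and Smcp of the sperm mitochondrial capsule fell 6.74-fold (log2 fold change -2.74). Odf1, of the outer dense fibers of the tail, fell 5.86-fold (log2 fold change -2.55). The transition protein genes Tnp1 and Tnp2 had values of -2.14 and -2.27, Camk4 -1.35, Ace -1.14 and Tcp11 -0.91. Ldhc, the lactate dehydrogenase of germ cells, was the exception, with 55218 ± 4291 in WT and 45116 ± 4382 in KI (log2 fold change -0.29, SE 0.115, adjusted p = 0.0812, and 0.0444 without KI library 4). Of 6 RFX-controlled ciliary genes none was called, against 8.22% lower and 6.13% higher over all genes. Their median was -0.01, with values between -0.17 and 0.14. Ift172, a subunit of intraflagellar transport, had 6594 ± 607 in WT and 6209 ± 1855 in KI. In libraries 1 to 3 alone, 3 of the 6 ciliary genes were lower by adjusted p, against 17.9% of all genes. They were Ift172 (-0.37, adjusted p = 0.00153), Ift122 (-0.23, adjusted p = 0.0244) and Tekt1 (-0.23, adjusted p = 0.0270). Rfx2 was also lower by adjusted p in that set, and a link between them was not tested. Within libraries 4 and 5 none of the 6 passed, and Ift172 and Ift122 both had a log2 fold change of 0.23 while Tekt1 had -0.07. The difference between the sets was 0.60 for Ift172 (SE 0.151) and 0.46 for Ift122 (SE 0.130), with adjusted p of 0.0903 and 0.106, so it did not pass after adjustment. Of 9 A-MYB-controlled piRNA and meiotic genes none was called, against the same shares of all genes. Their median was -0.02, with values between -0.13 and 0.11. Tdrd6, a tudor domain gene of germ granules, had 21296 ± 2237 in WT and 21380 ± 4803 in KI. None of the 9 passed within either set of libraries. Of the CREM-dependent genes, 10 of 10 were lower by adjusted p in libraries 1 to 3 (Ldhc -0.34, adjusted p = 0.00840) and 9 of 10 in libraries 4 and 5 (Ldhc -0.23, adjusted p = 0.501). The shares of all genes were 17.9% and 7.62%. None of these ciliary, piRNA and meiotic genes passed by adjusted p with the library number as a block.

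**Figure D4:**
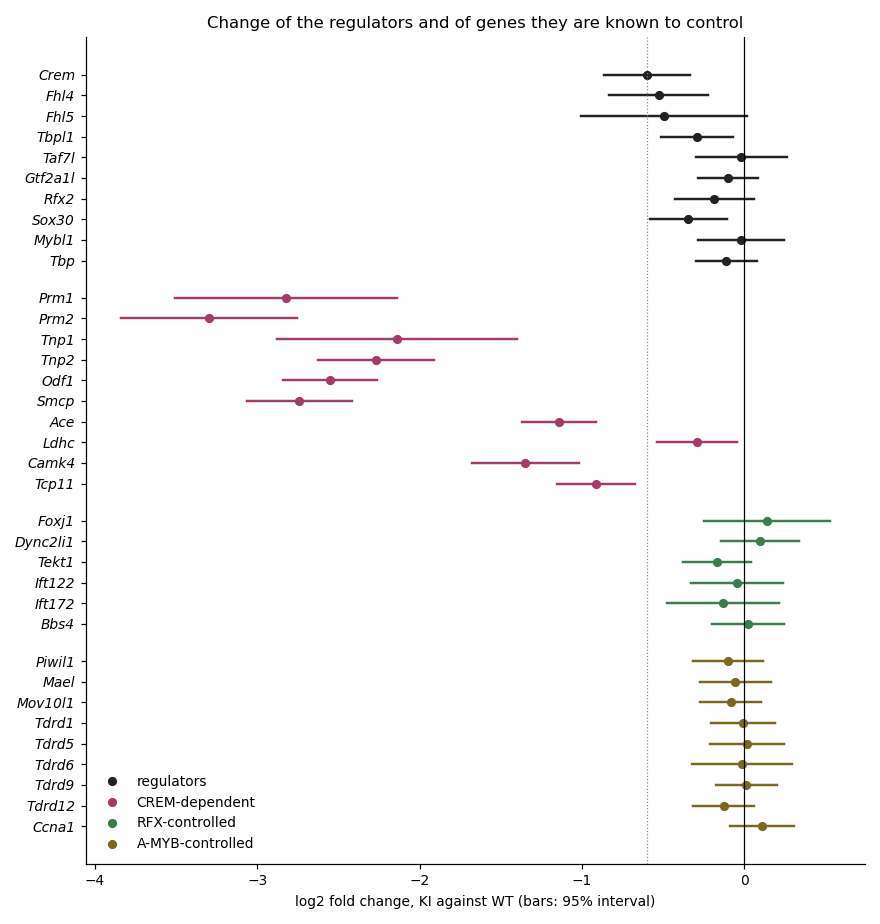
Log2 fold change of KI against WT (x axis) with its 95% interval for the 10 regulators and for genes known to depend on CREM, RFX factors and A-MYB (y axis), where the dotted line marks the value of Crem. CREM-dependent genes reach from -3.30 (Prm2) to -0.29 (Ldhc), while the regulators lie between -0.60 and -0.02 and the RFX and A-MYB genes lie around 0.

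Whether a target changed by a different amount from its regulator was tested within each library, as the log2 value of the target minus that of the regulator. Over 37 pairs of regulator and target, 21 differed between genotypes (exact permutation test, two-sided, adjusted p = 0.0140 for each, from the smallest p that 5 against 5 libraries can give, 0.00794). The pairs are not independent, since Prm1, Prm2, Tnp1 and Tnp2 each enter with Crem, Fhl5, Tbpl1 and Taf7l. The count of 21 is therefore not a count of separate results. For Crem, 8 of 10 targets were lower relative to Crem in KI, from -0.54 for Ace to -2.70 for Prm2, and in each of them no KI library reached a WT library. Prm2 stood 4.77 ± 0.294 above Crem on the log2 scale in WT and 2.08 ± 0.370 above it in KI, where the gene lengths enter both values alike. Ldhc moved the other way, from 4.13 ± 0.111 to 4.44 ± 0.155, a rise of 0.31 relative to Crem (exact permutation test, adjusted p = 0.0140). For Tcp11 the difference was -0.32 and did not pass (exact permutation test, adjusted p = 0.102). Prm1, Prm2, Tnp1 and Tnp2 also fell relative to Fhl5 (log2 differences of -1.65 to -2.80), to Tbpl1 (-1.85 to -3.01) and to Taf7l (-2.12 to -3.28) in 4 of 4 pairs each. These 4 targets alone had log2 fold changes of -2.14 to -3.30, and Taf7l had -0.02. The pairs of Taf7l therefore nearly repeat the targets' own changes and are no separate result. None of the 6 pairs of Rfx2 and none of the 9 pairs of Mybl1 differed, with differences of 0.02 to 0.32 and of -0.11 to 0.13. Within the library numbers the smallest p that such a test can give is 0.0625, so that none of the 37 pairs could pass there.

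**Figure D5:**
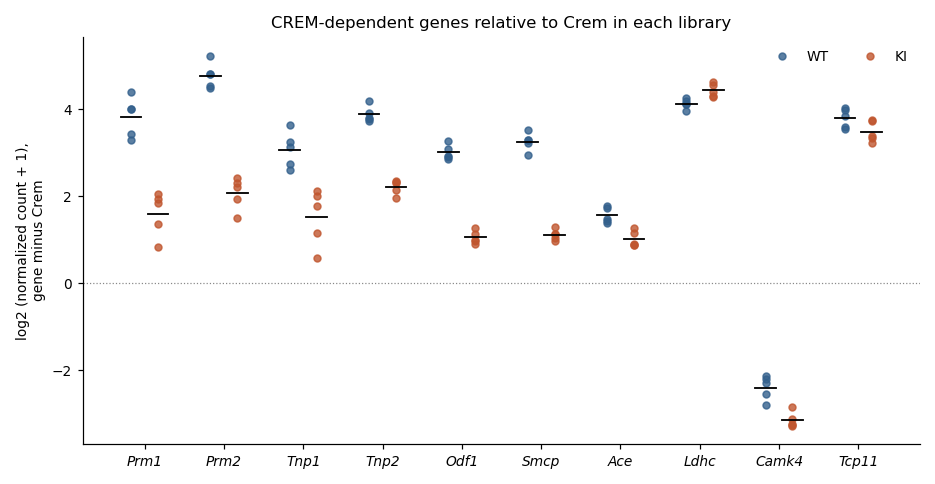
Log2(normalized count + 1) of each CREM-dependent gene minus that of Crem in the same library (y axis), with blue points for WT, orange points for KI and a line at each mean of 5 libraries. Prm2 moves from a mean of 4.77 to 2.08 and Smcp from 3.26 to 1.11, while Ldhc moves up from 4.13 to 4.44.

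The genes most like Crem were named by Pearson's r of log2 values over the 10 libraries among 10833 genes, as a description, since the libraries share genotype and library set. They were Mff (r = 0.990), Suclg1 (0.990), 1700017D01Rik (0.988), 1700099I09Rik (0.985) and Ppa2 (0.984). After the genotype means were removed, r was 0.95 to 0.97 for these 5. The 5 genes were picked by r over the same libraries, so this is no separate check. The library set was not removed, and Crem itself differed by -0.33 in libraries 4 and 5 against libraries 1 to 3 (limma, adjusted p = 0.0116). Mff fell from 3087 ± 269 to 2353 ± 255 and Suclg1 from 2639 ± 202 to 2109 ± 170 (log2 fold changes of -0.39 and -0.32). Among the regulators Fhl4 came nearest, at rank 7 (r = 0.983), followed by Tbpl1 at rank 292 (r = 0.942). Gtf2a2, a basal factor outside the 10 regulators, stood at rank 23. The CREM-dependent genes reached from rank 85 for Tnp1 (r = 0.967) to rank 1227 for Tcp11 (r = 0.844).

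Sequence upstream of the start site is shown where a letter match to the CRE was found, because CREM binds this motif. RefSeq windows (GRCm38.p6) were matched for 8 of the 10 regulators and 8 of the 10 CREM-dependent genes, and exact matches were searched on both strands of the 250 bases before the start site. The full CRE, TGACGTCA, was in none of these genes and in 1.77% of all genes with a window. The form TGACNTCA, searched after the full CRE had given no match, was in Fhl5, Prm1, Tnp1 and Ace, against 8.55% of all genes. The core TGACG, which the full CRE contains, was in Rfx2, Ldhc and Tcp11, against 19.8% of all genes. Below are the last 120 bases before the start site of those with the 8-base form, of Ldhc with its cores, and of Prm2, which fell most and had no match, with matches in capitals.
Fhl5, chr4:25242853-25242972, minus strand: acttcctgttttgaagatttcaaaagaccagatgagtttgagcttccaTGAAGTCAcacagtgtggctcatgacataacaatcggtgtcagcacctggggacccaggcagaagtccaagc
Prm1, chr16:10796824-10796943, minus strand: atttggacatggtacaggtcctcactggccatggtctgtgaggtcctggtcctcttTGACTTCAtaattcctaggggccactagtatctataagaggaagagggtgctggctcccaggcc
Tnp1, chr1:73015900-73016019, minus strand: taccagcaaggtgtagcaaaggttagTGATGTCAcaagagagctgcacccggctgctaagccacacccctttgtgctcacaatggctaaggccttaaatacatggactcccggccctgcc
Ace at its internal start site, chr11:105975069-105975188, plus strand: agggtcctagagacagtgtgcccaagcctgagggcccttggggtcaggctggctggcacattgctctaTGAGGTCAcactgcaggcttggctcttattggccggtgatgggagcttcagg
Ldhc, chr7:46861143-46861262, plus strand: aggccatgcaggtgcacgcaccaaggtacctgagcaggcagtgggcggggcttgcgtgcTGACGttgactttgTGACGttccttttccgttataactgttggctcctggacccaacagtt
Prm2, chr16:10792106-10792225, minus strand: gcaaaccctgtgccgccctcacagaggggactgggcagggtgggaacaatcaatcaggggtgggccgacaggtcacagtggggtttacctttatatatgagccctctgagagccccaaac

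Counted from the start site, the match began at position -72 in Fhl5, -64 in Prm1, -94 in Tnp1 and -52 in Ace, and the cores began at -61 and -47 in Ldhc, -53 in Tcp11 and -224 in Rfx2. The match in Fhl5 reads TGAAGTCA, which is the same 8 bases as the TGACTTCA of Prm1 on the other strand. Among the genes with the 8-base form Prm1, Tnp1 and Ace were called lower (-2.82, -2.14 and -1.14) and Fhl5 was not called (-0.50). Among those with the core alone Tcp11 was called lower (-0.91), while Ldhc (-0.29) and Rfx2 (-0.19) were not, and Prm2, with neither, had the lowest value of the CREM-dependent genes (-3.30). The letters of the TATA box, TATAAA, were in 1 of 8 regulators (Taf7l) and 2 of 8 CREM-dependent genes (Prm2 and Ace), against 14.3% of all genes. They began at -31 in Prm2 and Ace and at -150 and -148 in Taf7l. The Ace match was before its upstream start site, and none was found before the internal start site shown above. The X-box core GTTGCC was in Gtf2a1l, Rfx2 and Tcp11 (11.8% of all genes), the MYB core AACNG in 7 of 8 regulators (76.8%), and the SOX core ACAAT in 3 of 8 regulators (30.9%). A match of letters is a description of the sequence and not of binding.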

How the data were processed

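Poly(A) RNA of germ cells from 5 WT and 5 KI mice was sequenced as paired-end reads. Reads were mapped by the authors to mm10 with STAR and counted on RefSeq genes with the Partek E/M model, per the study's methods. The deposited values are a signal per gene and library, namely counts divided by a size factor as DESeq2 computes it. Whole reads were recovered from them for 100% of values under 5000 reads (within 0.1 of a whole read). Columns with the authors' own fold changes and p-values were not used, and 0 columns of sample values were left unassigned.

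limma 3.58.1 (R 4.3.3) with a variance trend was fitted to log2(value + 1) for the 15389 genes that passed edgeR's filterByExpr, with Benjamini-Hochberg adjustment. edgeR 4.0.16 and DESeq2 1.42.0 on the recovered reads were alternatives, with other scalings, filters, thresholds, library sets and left-out libraries. The scripts were tested on simulated data. Positions are as the authors' table gives them in mm10. Exon lengths and transcripts came from GENCODE and upstream sequence from RefSeq (GRCm38.p6), of the same build. Each library is 1 mouse, and the main fit has no term for library set. Its p-values therefore measure the spread between mice together with any difference between the sets of libraries. The block fit removes what libraries of the same number share, the library set included.

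After genotype means were removed, the KI and WT library with the same number had correlations of 0.306, 0.105, 0.280, 0.216 and 0.462, against a mean of 0.134 for KI and WT libraries of different number within the same set and -0.20 across sets. For number 2 the value of 0.105 was below the mean of 0.134, so pairing by number is not established. The numbers were used as a block on the data alone, beside fits without it. The labels do not say what a number marks, and part of this correlation is shared by the whole set. The regulators, gene lists, pairs and tests were chosen with earlier results of these data known. Named were all regulators with each library's value or range, up to 4 called genes in each list with the largest change and the gene with the highest mean that was not called, the 5 genes most like Crem, and Ddx25. Genes that passed by adjusted p alone (Taf13, Taf11, Taf6 and Hsf2), the remaining CREM-dependent genes and the genes with a motif match were named after their values were seen. So were Ift122, Tekt1, Aif1 and the round spermatid markers. The lists were read within each library set, and their called genes under each scaling, after seeing the data. Depth was 12722086 to 16422347 reads on genes per library, and the lowest regulator count was 473 reads, so that counting error was small beside the spread between mice.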

Additional observations from a re-analysis of the deposited data

Results flagged for a closer look

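In 40 groups of 5 libraries, the lowest or highest library was compared with the others by Dixon's gap, which chance alone exceeds in about 1 in 20 groups. It stood apart in 2 of them, both KI library 5. Tbpl1 had a normalized count of 3020 there, against 3959 in the nearest other KI library. Smcp had 3347 there, against 4716 in the nearest other KI library.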

How the results depend on the processing

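Over 26 alternatives the fold changes of Crem, Fhl4, Fhl5, Tbpl1 and Sox30 kept their direction, and the adjusted p was under 0.05 in 25 of 26 for Crem, 23 for Fhl4, 14 for Sox30, 7 for Tbpl1 and 4 for Fhl5. Scaling changed most. With library totals the median of all genes moved to 0.25, 789 genes were called lower and 2144 higher (against 1265 and 944), 0 regulators were called, 1 passed by adjusted p, and Taf7l (0.21), Gtf2a1l (0.13), Rfx2 (0.043), Mybl1 (0.21) and Tbp (0.12) turned above 0. With the upper quartile, 0 regulators were called, and Taf7l (0.0755) and Mybl1 (0.0750) turned. Scaled to spermatocyte markers, 786 genes were called lower, 394 higher, 0 regulators were called and 0 passed by adjusted p (Crem -0.58, adjusted p = 0.181). The calls of Gtf2a2 and Rfx3 ended under these 3 scalings and that of Nr6a1 with library totals and spermatocyte markers, while Kif17 and Fhl2 stayed called. Relative to the median of all genes, Crem lay at -0.62 to -0.63 and all 10 regulators below 0 under each scaling. A scaling shifts all genes of a library alike, so these relative values could hardly change and are no check of the result.

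Among genes averaging at least 100 normalized counts, 321 genes were called higher and 0 in the related lists (against 1, Fhl2). At an adjusted p under 0.01, 605 genes were called higher, 1 regulator passed and 0 genes of the related lists were called higher. With no fold threshold, 2044 genes were lower, 1485 higher and 3 regulators were called. With the library set as a term 5 regulators passed by adjusted p, and with libraries 1 to 3 alone 6 did, with Taf7l at 0.0446. With libraries 4 and 5 alone, 1 regulator passed, 472 genes were called higher, 0 in the related lists, and Gtf2a1l (0.00026), Rfx2 (0.0280), Mybl1 (0.25) and Tbp (0.0268) lay above 0. The cause of these changes was not tested.

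With the replicate block 5 regulators passed by adjusted p, and 5 with edgeR and the block, an alternative chosen after seeing the data. The block leaves each fold change as it was, and only Crem passed the fold threshold. No other regulator could therefore become called by both thresholds, and Crem stayed called. In the tests of target minus regulator, 0 of 37 pairs passed with the replicate block, with libraries 1 to 3 alone and with libraries 4 and 5 alone, where the smallest p possible was 0.0625, 0.1 and 0.333.

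Leaving out 1 library at a time gave 0 to 2 called regulators, 2 to 3 regulators passing by adjusted p, 1130 to 1296 genes called lower and 809 to 1012 higher, 12 to 14 genes of the related lists called lower and 0 to 1 higher, and 21 to 22 pairs. Taf7l ranged from -0.0792 to 0.0497 and Mybl1 from -0.0971 to 0.0408.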
